A study of Mus musculus with 147 samples.

Results

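The genes described here are the transcriptional cofactors Yap1 and Wwtr1 (the gene of TAZ), the DNA-binding factors Tead1, Tead2, Tead3 and Tead4, the kinases Lats1 and Lats2, and Amotl2 and Ankrd1, which are widely used as targets of the pathway. They were taken by symbol as the effector end of the Hippo pathway, and all 10 were found among the 35438 genes of the count tables. They were measured in single YFP-positive cells sorted from the kidney cortex of adult C57BL/6 mice and captured on the Fluidigm C1 System, 51 WT renin cells from 4 Ren1c+/+ Ren1c-YFP mice and 96 Reninnull cells from 12 Ren1c-/- Ren1c-YFP mice. In both genotypes YFP was made from a transgene under the regulatory sequence of Ren1c, so a sorted cell is one in which that sequence was active, and mice with the deleted allele received saline under the skin after birth. Library YFP1 and library YFP2 each hold 48 of the Reninnull cells. WT cells came from 1 capture and Reninnull cells from 4, and the labels tie no cell to a mouse or capture. Each genotype is therefore 1 sample, no test between them was possible, and an effect of genotype and one of capture or library cannot be told apart.

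The Hippo pathway is a kinase cascade that senses cell contact, tension and attachment. When it is active, the kinases STK3 and STK4 switch on LATS1 and LATS2, which phosphorylate YAP and TAZ, so that these are held in the cytoplasm by 14-3-3 proteins or degraded. When it is quiet, YAP and TAZ enter the nucleus and bind TEAD factors, which carry them to target genes such as Ccn1, Ccn2, Ankrd1 and Amotl2. LATS2 and AMOTL2 are both targets and inhibitors of YAP. In vascular mural cells YAP and TAZ are known for relaying stiffness and stretch. The amount of mRNA says nothing directly about phosphorylation or the place of the proteins in the cell.

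TEAD factors recognise GGAATG, or CATTCC on the other strand, and windows of 250 bases before RefSeq transcription starts (GRCm38.p6) were searched for these letters on both strands. They were in 4153 of 32851 windows (12.6%), which belong to 3880 of 27025 genes (14.4%). Of the genes described here 8 had a window, and 5 of these held the letters, namely Yap1, Wwtr1, Tead3, Amotl2 and Ankrd1. Those of both cofactors, of the targets Amotl2 and Ankrd1, whose ratios lay far apart, and of Ccn1, whose summed level differed little, are printed 5′ to 3′ on the strand of the gene, with the searched letters in capitals. They lie at chr9:8004720-8004749 (minus strand, Yap1), chr3:57576029-57576058 (minus, Wwtr1), chr9:102717727-102717756 (plus, Amotl2, in an annotated Amotl2 exon of another start), chr19:36120037-36120066 (minus, Ankrd1, in an annotated Ankrd1 exon of another start) and chr3:145650071-145650100 (minus, Ccn1).
Yap1: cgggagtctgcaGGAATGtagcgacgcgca
Wwtr1: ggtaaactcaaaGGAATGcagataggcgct
Amotl2: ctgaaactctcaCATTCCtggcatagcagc
Ankrd1: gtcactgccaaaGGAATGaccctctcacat
Ccn1: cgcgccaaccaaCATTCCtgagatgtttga
A match describes the letters only. The genes that held them included Amotl2, 31.0-fold higher in Reninnull cells, as well as Ankrd1 and Ccn1, which were not higher.

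Levels are the summed counts of all cells of 1 genotype per 1000000 counts (CPM), and a difference is the log2 ratio of Reninnull over WT with an exact 95% interval that covers counting error only. The reads carry no molecular identifiers, so PCR copies count more than once, and the spread between cells is far wider than these intervals. WT cells held 26401 to 17124854 counts with a median of 1525972, and Reninnull cells 3628 to 14505243 with a median of 4107950.5. The median mitochondrial share was 60.4% in WT and 12.4% in Reninnull cells. Ren1, the deleted gene, stood at 96023 CPM with a count in all 51 WT cells and at 0.135 CPM with a count in 16 of 96 Reninnull cells, so the libraries matched their labels. The 4 smooth muscle markers (Acta2, Tagln, Myh11, Cnn1) summed to 10455 CPM in WT and 11546 CPM in Reninnull cells.

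Before the genes themselves, markers of other kidney cells have to be set out, since their sums were higher in Reninnull wells. Podocyte markers (Synpo the highest) summed to 85.8 CPM in WT and 509 CPM in Reninnull cells, with Podxl at 0 in WT, and fibroblast markers, mostly Col1a1, to 7.04 and 273 CPM with 3 of 4 higher. Proximal tubule markers summed to 19.0 and 197 CPM with all 4 genes higher, loop and distal tubule markers to 0.515 and 109 CPM with all 4 higher, and collecting duct markers to 3.72 and 34.6 CPM with 2 of 4 higher. Endothelial markers, mostly Emcn, summed to 30.8 and 211 CPM with Cdh5 at 0 in WT, and macrophage markers to 0.925 and 3.93 CPM with 3 of 4 higher and C1qa, Cd68 and Lyz2 at 0 in WT. Podocyte, fibroblast, endothelial and collecting duct markers were also higher in YFP2 (815, 380, 365 and 61.1 CPM) than in YFP1 (142, 144, 25.6 and 2.95 CPM), while proximal tubule, loop and distal tubule and macrophage markers were higher in YFP1 (231, 189 and 4.32 CPM) than in YFP2 (169, 43.0 and 3.61 CPM). In 9 WT and 70 Reninnull wells at least 1 of these lists reached 100 CPM, and in 22 Reninnull and 0 WT wells 1 reached 1000 CPM. Levels of the cofactors, of Tead1, Tead2 and Tead3, of Lats2 and of Amotl2 without these wells are given below, and what part such cells had in the differences was not tested further.

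With all cells, 7 of the 10 genes were at least 2-fold higher in Reninnull cells and 1 was at least 2-fold lower, where 52.4% and 18.5% of the 18720 genes with a ratio were. The median log2 ratio was 1.86 over the 10 genes and 1.17 over all genes. Of the 6 genes with at least 10 CPM in the higher genotype 5 were at least 2-fold higher, against 47.8% of 8747 such genes, but Lats1 and Amotl2 reached that minimum in Reninnull cells alone, so that count is partly set by it. Most genes were thus higher in Reninnull cells, so each ratio is read beside that median. Tead4, Amotl2, Tead1 and Lats1 lay farthest above it, and Yap1, Tead2 and Ankrd1 lay below it. In both libraries at once 4 of the 10 genes were at least 2-fold higher (Tead1, Tead3, Lats2 and Amotl2), and in 4 (Yap1, Wwtr1, Tead2 and Lats1) the libraries lay on opposite sides of WT. Counted over the 6 of at least 10 CPM, these were 3 and 3, where 31.4% and 24.5% of genes of at least 10 CPM were. With the highest cell of the library and that of WT left out, the 4 stood at least 2-fold higher in both as well (in YFP1 and YFP2, 6.01 and 7.76 for Tead1, 2.24 and 1.86 for Tead3, 2.61 and 5.39 for Lats2, and 1.84 and 3.45 for Amotl2). With that of the library alone left out, while WT kept its own, Lats2 in YFP1 (-1.49), Tead3 in both (0.22 and -0.16) and Amotl2 in YFP1 (0.72) were not 2-fold higher. This order depended on few wells, as the plot of ratios by the cells summed shows.

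**Figure D1:**
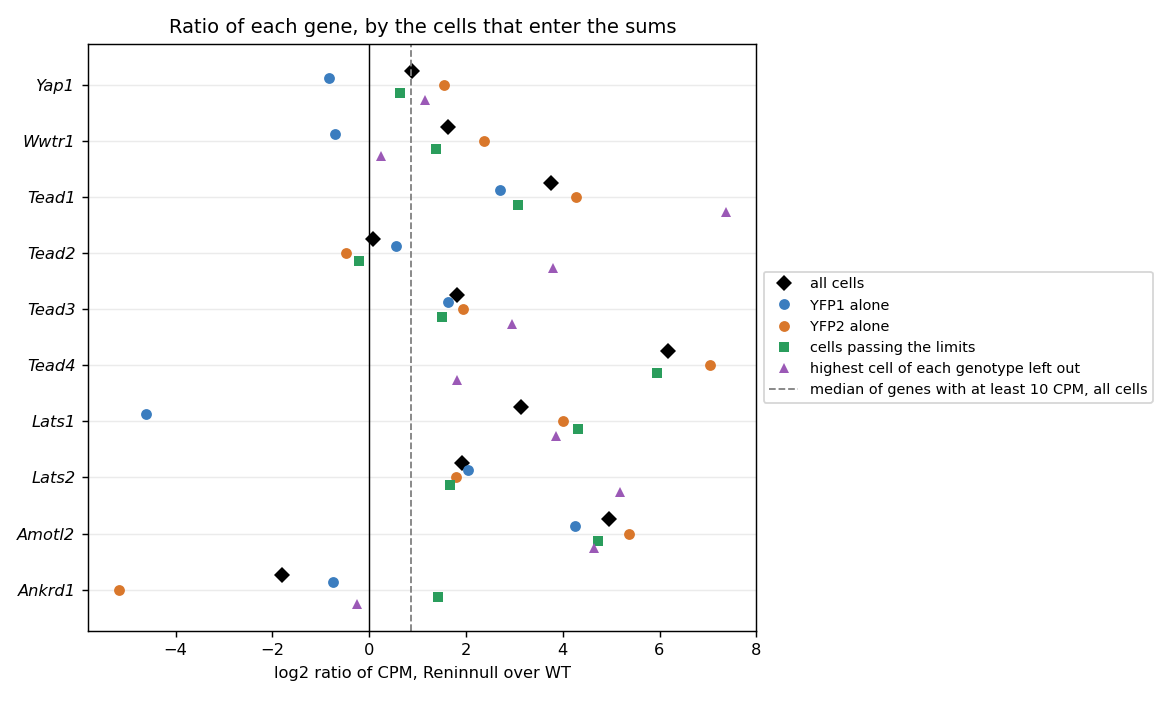
Log2 ratio of CPM (x axis, Reninnull over WT) of each gene (y axis) for all cells (diamonds), each Reninnull library against the same WT cells (circles), cells passing limits on counts, genes and mitochondrial share (squares), and with the highest cell of each genotype left out (triangles). The dashed line is the median of genes with at least 10 CPM, 0.86. Tead4 ratios are bounds against the floor of 3 counts. Tead1, Tead3, Lats2 and Amotl2 lie above 1 in all 5 settings and Tead4 in the 4 that gave a value, and Yap1, Wwtr1 and Lats1 lie on either side of 0 in the 2 libraries.

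Yap1 (chr9:7931999-8004596, GRCm38), the coactivator that gives the pathway its output, was present in both genotypes and differed about as much as the median gene. It stood at 75.1 CPM in WT and 138 CPM in Reninnull cells, a log2 ratio of 0.88 (95% interval 0.85 to 0.91) beside a median of 0.86 for genes of at least 10 CPM. Over single cells Yap1 ran from 0 over a median of 0.650 to 476 CPM in WT and from 0 over 1.29 to 1503 CPM in Reninnull cells, so the ranges overlapped. The summed levels of the libraries went opposite ways, with 42.2 CPM in YFP1 (log2 ratio -0.83) and 218 CPM in YFP2 (1.54). Their median cells, at 1.05 and 2.94 CPM, both lay above that of WT. The highest WT cells held 5696, 4139 and 3392 of 14864 WT counts. Yap1 was also the most widely found of the 10 genes, with a count in 30 of 51 WT cells and 70 of 96 Reninnull cells. In cells thinned to 62000 counts each (49 WT and 83 Reninnull cells, with 2 and 13 shallower cells left out), it had a count in 24.5% (13.3 to 38.9) and 38.6% (28.1 to 49.9). These intervals are exact for the cells counted and take no account of mice or captures, so they do not compare genotypes. Among thinned cells within the limits (at least 100000 counts and 1000 genes and at most 25% mitochondrial counts) it was in 7 of 15 WT and 28 of 57 Reninnull cells. Before thinning, the median cell within the limits held 9.02 CPM in WT and 4.39 CPM in Reninnull cells, which is the other direction. Without the wells at 100 CPM of other kidney markers Yap1 stood at 37.0 CPM in WT and 37.2 CPM in Reninnull cells, with 96.1% and 82.8% of the counts in 1 cell each, and without those at 1000 CPM at 75.1 and 139 CPM.

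Wwtr1 (chr3:57455649-57575910), the gene of the Yap1 paralogue TAZ, showed the same split. Its level was 28.3 CPM in WT and 87.4 CPM in Reninnull cells, a log2 ratio of 1.63 (1.58 to 1.67), but 17.4 CPM in YFP1 (-0.70) and 146 CPM in YFP2 (2.36). A single YFP2 cell held 25439 of the 34858 Reninnull counts, and with the highest WT and Reninnull cells left out the levels were 20.6 and 24.3 CPM. Wwtr1 ran from 0 over a median of 0 to 194 CPM in WT cells and from 0 over 0 to 2361 CPM in Reninnull cells. It had a count in 23 of 51 WT and 47 of 96 Reninnull cells, and after thinning in 14.3% (5.94 to 27.2) and 22.9% (14.4 to 33.4). Among thinned cells within the limits it was in 7 of 15 WT and 15 of 57 Reninnull cells, which is the other direction. Without the wells at 100 CPM of other kidney markers Wwtr1 stood at 15.1 and 19.4 CPM, with 79.6% and 95.9% of the counts in 1 cell each. With the highest cells left out as well, the levels were 3.33 and 0.899 CPM. Without the wells at 1000 CPM Wwtr1 stood at 28.3 and 22.9 CPM. The higher summed level of Wwtr1 in Reninnull cells therefore rested on 1 library and mostly on 1 cell.

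**Figure D2:**
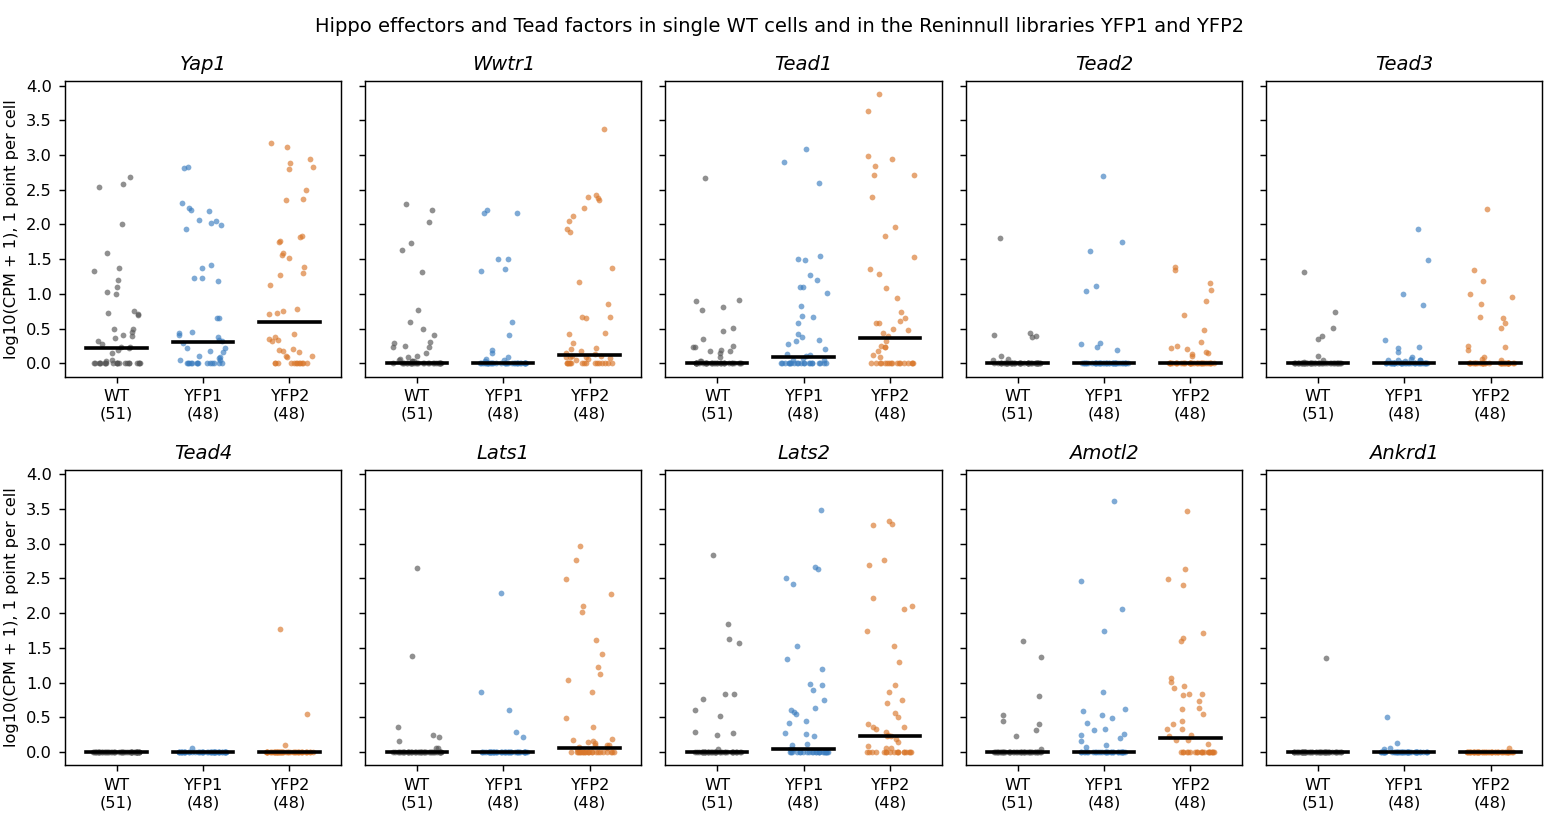
Level of each gene in single cells (y axis, log10(CPM + 1)) of WT (51 cells) and of the Reninnull libraries YFP1 and YFP2 (48 cells each), 1 point per cell with horizontal jitter only, and a bar at the median. Most cells lie at or near 0 for every gene, and the levels of Tead1, Lats2 and Amotl2 are set by a few cells, 1 of them in WT for Tead1 (460 CPM).

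Tead1 (chr7:112679318-112906807), a TEAD factor of the heart and vessel wall, carried most Tead counts in both genotypes and had the largest ratio after Amotl2 among those of the 10 genes with counts in both. Its level was 16.1 CPM in WT and 218 CPM in Reninnull cells, 13.6-fold higher, with a log2 ratio of 3.76 (3.71 to 3.82), 105 CPM in YFP1 (2.71) and 313 CPM in YFP2 (4.28). Single cells ran from 0 over a median of 0 to 460 CPM in WT and from 0 over 0.644 to 7476 CPM in Reninnull cells. At least 10 CPM was reached in 1 WT cell and in 24 Reninnull cells, 10 of them in YFP1 and 14 in YFP2. That 1 WT cell held 2990 of 3179 WT counts (94.1%), and the next WT cells held 78 and 55. The highest Reninnull cells held 22224, 18385 and 8283 counts. With the highest cell of either side left out Tead1 stood at 0.987 and 164 CPM. The study lists Tead1 among genes it selected in these same cells, so its direction here is not independent evidence.

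With cells thinned to equal total counts the share of cells with Tead1 differed in the same direction. After thinning, 3 of 49 WT cells (6.12%, 1.28 to 16.9) and 24 of 83 Reninnull cells (28.9%, 19.5 to 39.9) had a count. The thinned share was 27.5% (14.6 to 43.9) in YFP1 and 30.2% (17.2 to 46.1) in YFP2. Because mitochondrial counts take a larger share in WT, thinned WT cells hold fewer other counts, so non-mitochondrial counts were also thinned alone, to 35000 a cell. Tead1 was then in 2 of 50 WT and 24 of 83 Reninnull cells (4.00% and 28.9%), Yap1 in 22.0% and 36.1%, and Wwtr1 in 14.0% and 14.5%. In cells thinned on all counts, among those within the limits Tead1 was in 1 of 15 WT and 19 of 57 Reninnull cells. The difference depended on which wells with markers of other kidney cells were kept. With the wells at 1000 CPM or more of such markers left out (51 WT and 74 Reninnull wells kept), Tead1 stood at 16.1 and 171 CPM. With those at 100 CPM or more left out, 42 WT and 26 Reninnull wells remained, and Tead1 stood at 26.8 and 1.63 CPM, a log2 ratio of -4.04. In the wells kept 95.8% of the WT counts lay in 1 cell, the levels without the highest cells were 1.20 and 0.909 CPM, and after thinning 3 of 41 WT and 1 of 23 Reninnull wells had a count. Both limits were set after the data had been seen, and 19 of these 26 wells belong to YFP1.

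In 4 of the 10 (Tead1, Lats2, Yap1 and Amotl2) the thinned share was at least 10 percentage points higher in Reninnull cells and in 0 it was that much lower, with a median difference of 8.10 points. Of 6690 genes found in at least 10% of the thinned cells of a genotype, 43.9% were higher and 7.28% lower by as much, with a median of 8.70 points. Only 6 of the 10 meet that minimum, and these 6 hold all 4 of the higher shares and have a median of 13.2 points, but a gene can meet it through the genotype with the higher share alone. With non-mitochondrial counts thinned, 4 of these 6 were at least 10 points higher and 0 lower, where 36.4% and 11.8% of 6540 genes were. Tead1 had the widest difference of the 10 (22.8 points).

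The other Tead genes were sparse in both genotypes. Tead2 (chr7:45215753-45233644), a factor of embryonic tissues, stood at 4.03 CPM in WT and 4.27 CPM in Reninnull cells, with a log2 ratio of 0.08 (-0.04 to 0.21), 0.56 in YFP1 and -0.48 in YFP2. In WT 1 cell held 95.1% of its counts, and with the highest cells left out Tead2 stood at 0.210 and 2.90 CPM (3.79), so its near equal sums do not show that it was alike in both genotypes. Without the wells at 100 CPM of other kidney markers its levels were 6.57 and 1.09 CPM, but 99.2% of these WT counts lay in 1 cell. With the highest cells left out as well, the levels were 0.0575 and 0.0710 CPM, so the lower Reninnull level was not kept. Without the wells at 1000 CPM Tead2 stood at 4.03 and 5.18 CPM. Tead3 (chr17:28331671-28350817) stood at 316 counts in WT and 2227 counts (5.58 CPM) in Reninnull cells, a log2 ratio of 1.81, and it was higher in both libraries (1.62 and 1.94). Without the wells at 100 CPM of other kidney markers it stood at 0.275 and 7.48 CPM, but 98.8% of these Reninnull counts lay in 1 cell. With the highest cells left out as well, the levels were 0.143 and 0.0997 CPM, the other direction. Among thinned cells within the limits Tead3 was in 2 of 15 WT and 5 of 57 Reninnull cells (13.3% and 8.77%). Tead4 (chr6:128224288-128300823) had 0 counts in 51 WT cells and 437 in Reninnull cells, at least 72.3-fold higher against a floor of 3 counts over the group. Of these 437 counts 416 lay in 1 YFP2 cell, and a count was found in 4 of 96 Reninnull cells. A count of 0 in 51 WT cells allows up to 6.98% of cells with a count (exact Clopper-Pearson), which sets no limit on the share of cells that express the gene. In 18 of the 24 Reninnull cells with at least 10 CPM of Tead1, none of Tead2, Tead3 and Tead4 reached that level.

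Cofactors and Tead factors did not always lie in the same cells. At 10 CPM or more, Yap1 or Wwtr1 was present in 12 of 51 WT and 45 of 96 Reninnull cells, and a Tead gene in 3 and 33. Both were present in 3 WT and 19 Reninnull cells, so 26 Reninnull cells had a cofactor with no Tead gene and 14 a Tead gene with no cofactor at that level. In 36 WT and 30 Reninnull cells none of the 10 genes reached 10 CPM. Across the 83 Reninnull cells with at least 100000 counts the Spearman coefficient of Tead1 was 0.20 with Yap1 and -0.06 with Wwtr1, and that of Yap1 with Wwtr1 was 0.22. With the summed CPM of marker lists the coefficient of Tead1 was 0.41 (loop and distal tubule), 0.20 (proximal tubule), 0.15 (podocyte), 0.13 (macrophage) and 0.08 (collecting duct). It was -0.004 with smooth muscle, -0.01 with endothelial, -0.02 with fibroblast and -0.08 with renin cell markers. These cells share libraries. With the number of genes found per cell Yap1 had a coefficient of 0.48, Wwtr1 of 0.38 and Tead1 of 0.23, so such values describe the cells only. Among 4013 genes found in at least 50% of these cells, the ones most like Yap1 were Sema5a (coefficient 0.60), Dync1i2, Arf4, Rab3gap1 and Fgfr1 (0.55). Most like Wwtr1 were Pdgfrb (0.56), the mural PDGF receptor, then Heg1, Serinc1, Fuca1 and Map4 (0.51), and among those most like Tead1 were Errfi1 (0.57), Ndufa12, Eif4g3 and Neurl3 (0.44). With the number of genes found per cell these genes themselves had coefficients from 0.13 (Eif4g3) to 0.60 (Neurl3), with Sema5a at 0.55 and Pdgfrb at 0.45. What part that number had in the likeness was not tested.

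**Figure D3:**
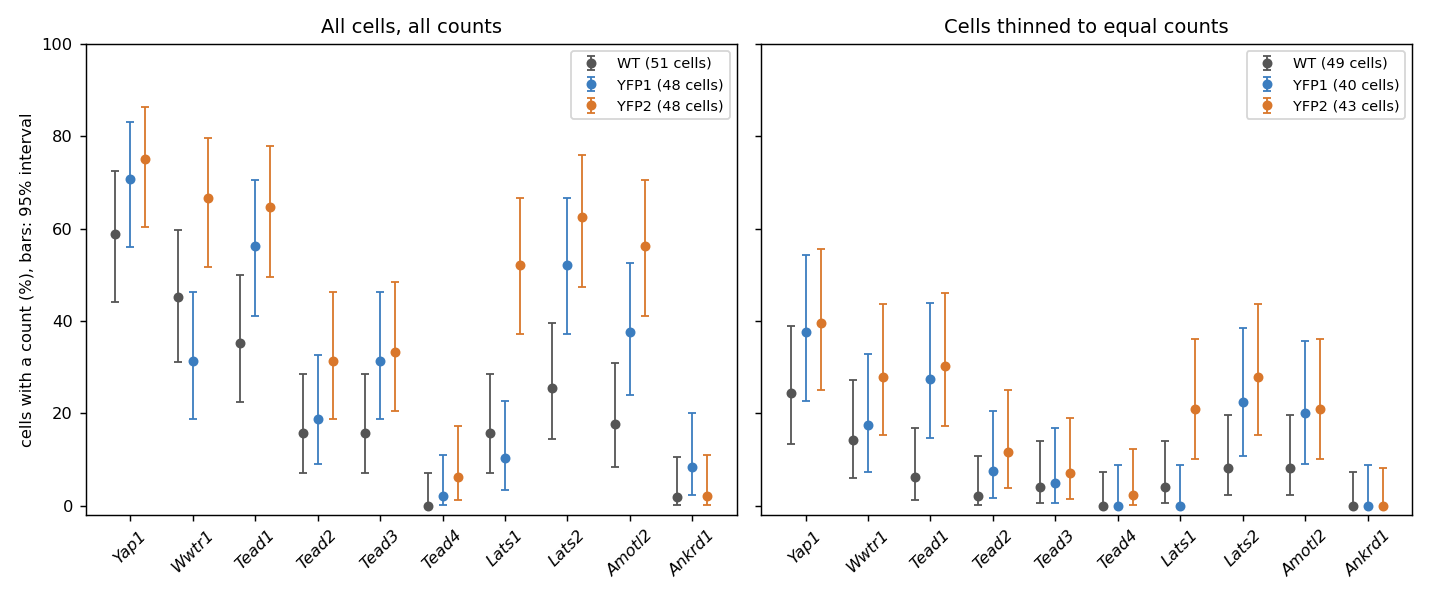
Share of cells with a count of each gene (y axis, percent, bars are exact 95% intervals) in WT, YFP1 and YFP2, over all cells and counts (left) and after thinning each cell to 62000 counts (right). After thinning Tead1 lies at 6.12% in WT, 27.5% in YFP1 and 30.2% in YFP2, and its YFP1 interval reaches into that of WT. The intervals cover the counting of cells only.

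Lats2 (chr14:57689662-57758388), the kinase that is also a YAP target, was higher in both libraries when all cells were summed, whereas Lats1 (chr10:7681214-7716460), its paralogue, was higher in YFP2 alone. Lats2 stood at 63.9 CPM in WT and 241 CPM in Reninnull cells, 3.77-fold higher (log2 ratio 1.91, 1.89 to 1.94), with 265 CPM in YFP1 and 221 CPM in YFP2. Single cells ran from 0 over a median of 0 to 699 CPM in WT and from 0 over 0.337 to 3053 CPM in Reninnull cells. In WT 1 cell held 11977 of 12649 counts (94.7%), and leaving out the highest WT and Reninnull cells gave 3.72 and 135 CPM. In YFP1 1 cell held 44279 of 48067 counts (92.1%), and without it YFP1 stood at 22.7 CPM, below WT with all cells and above WT without its highest cell, while YFP2 without its highest cell stood at 156 CPM. Thinned cells had a count of Lats2 in 8.16% of WT (2.27 to 19.6) and 25.3% of Reninnull cells (16.4 to 36.0). In cells within the limits the thinned counts were nearer, 4 of 15 and 18 of 57. Without the wells at 100 CPM of other kidney markers Lats2 stood at 0.739 and 23.1 CPM, with 96.7% of these Reninnull counts in 1 cell. With the highest cells left out as well, the levels were 0.314 and 0.838 CPM, and after thinning 2 of 41 WT and 2 of 23 Reninnull wells had a count. Without the wells at 1000 CPM Lats2 stood at 63.9 and 264 CPM.

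Lats1 stood at 4.46 CPM in WT, 0.182 CPM in YFP1 and 71.5 CPM in YFP2, log2 ratios of -4.61 and 4.00 that combine to 3.13 (3.03 to 3.23). Of its 882 WT counts the highest cells held 571, 287 and 16, so the WT level that YFP1 is set against lay in few wells. It had 33 counts in all of YFP1 and 15539 in YFP2. After thinning it was found in 2 of 49 WT, 0 of 40 YFP1 and 9 of 43 YFP2 cells. Without thinning these were 8 of 51, 5 of 48 and 25 of 48. The difference between the 2 Reninnull libraries was thus larger for Lats1 than that between Reninnull and WT cells, and of the markers of other kidney cells 4 lists were likewise higher in YFP2 and 3 higher in YFP1. In the 26 Reninnull wells with under 100 CPM of each such list Lats1 had 4 counts, but 19 of these wells belong to YFP1, where Lats1 was sparse in any case. What part those cells had in the level of Lats1 was not tested further.

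Amotl2 (chr9:102716672-102733418), which encodes an angiomotin family protein that binds YAP and restrains it, showed the largest ratio among those of the 10 genes with counts in both genotypes. It stood at 4.20 CPM in WT and 130 CPM in Reninnull cells, 31.0-fold higher (log2 ratio 4.96, 4.86 to 5.06), with 79.6 CPM in YFP1 (4.24) and 173 CPM in YFP2 (5.36). Single cells ran from 0 over a median of 0 to 38.6 CPM in WT and from 0 over 0 to 4201 CPM in Reninnull cells. Of the 51985 Reninnull counts 33189 lay in 1 YFP2 cell and 13211 in 1 YFP1 cell, and leaving out the highest WT and Reninnull cells gave 1.93 and 48.5 CPM. Without its own highest cell YFP1 stood at 6.91 CPM and YFP2 at 21.1 CPM. A count was found in 8.16% (2.27 to 19.6) of thinned WT and 20.5% (12.4 to 30.8) of thinned Reninnull cells, but among those within the limits the shares were near each other, 3 of 15 and 13 of 57. Of the 10 genes Amotl2 alone had a log2 ratio of at least 1 in all 16 alternatives run on the ratio of the genotypes, also without wells of other kidney markers (2.49 and 446 CPM at the limit of 100 CPM, of which 96.8% in 1 Reninnull cell, and 0.211 and 16.9 CPM without the highest cells).

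Ankrd1 (chr19:36111961-36120099), a muscle stress protein often used as a readout of YAP, was almost absent. It had 33 counts in WT, all in 1 cell, and 19 in Reninnull cells, spread over 5 cells, or 0.167 and 0.0476 CPM. Its log2 ratio of -1.81 (-2.70 to -0.95) is a comparison of those few wells, and after thinning it had a count in 0 of 49 WT and 0 of 83 Reninnull cells.

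**Figure D4:**
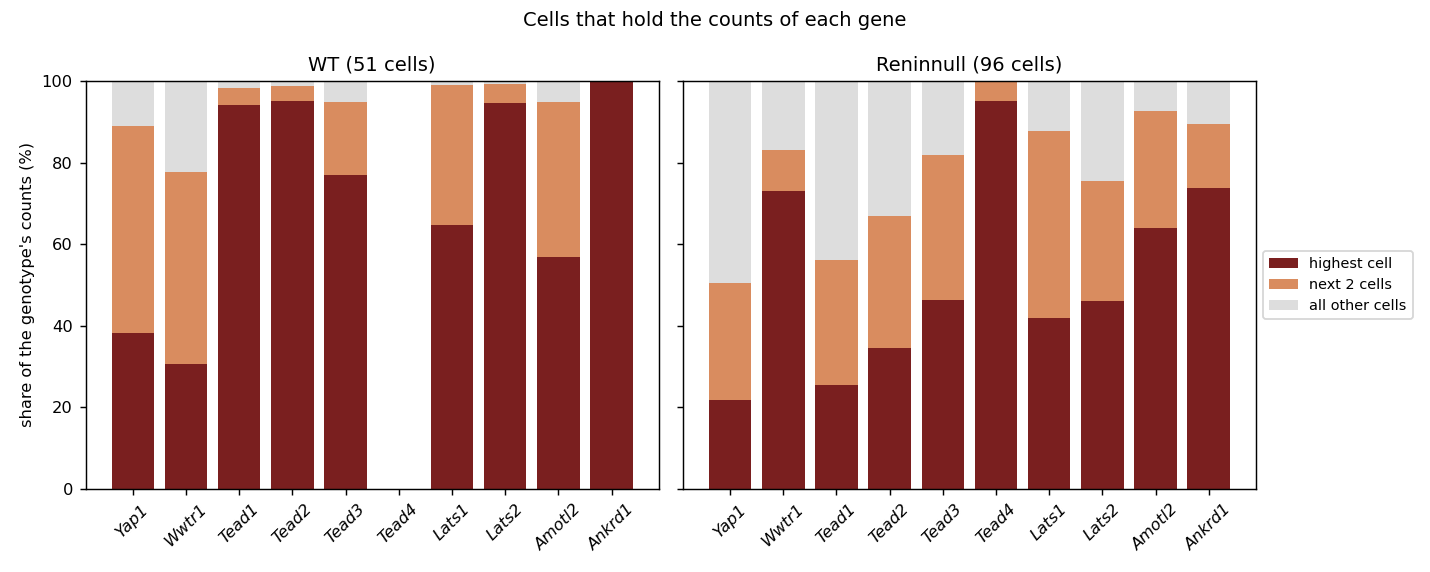
Share of the counts of each gene (y axis, percent) that lay in the highest cell, the next 2 cells and all other cells of WT (left, 51 cells) and Reninnull (right, 96 cells). In WT 1 cell held over 90% of the counts of Tead1 (94.1%), Tead2 (95.1%), Lats2 (94.7%) and Ankrd1 (100%), and Tead4 had no counts. In Reninnull cells Tead1 (25.5%) and Yap1 (21.9%) were the most widely spread.

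The concentration of counts in few cells was common and stronger in WT. In WT 1 cell held at least 50% of the counts in 7 of the 9 genes with a count, and in Reninnull cells in 4 of 10. Over the 6 genes of at least 10 CPM these were 4 and 2, where it held for 68.9% of 8424 such genes in WT and 39.9% of 8723 in Reninnull cells. Wells that share an index with the highest well of Tead1 in WT had a count more often (10 of 14, at most 6 counts) than the other wells (7 of 36, at most 78 counts). For the highest well of Lats2 in WT these were 6 of 14 and 6 of 36, for that of Amotl2 in YFP2 10 of 14 and 16 of 33, and for that of Wwtr1 in YFP2 11 of 14 and 20 of 33. For Lats2 (6 of 14 and 18 of 33) and Amotl2 (4 of 14 and 13 of 33) in YFP1 the direction was the other. What part this had in the counts was not tested. Among Reninnull wells 4 pairs had nearly the same profile (Pearson r of log2(CPM + 1) of at least 0.974, the next pair 0.896, the highest WT pair 0.717), and counting each pair once moved the median of the 10 genes from 1.86 to 1.92.

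Levels can be compared between genes only per length. Per kb of merged exons, Lats2 was highest in both genotypes (9.17 CPM per kb in WT, 34.5 in Reninnull cells), but in WT its level lay almost wholly in 1 cell and, with the longest transcript as the length, Yap1 (14.2) came above it (12.3). In WT the order continued with Yap1 (8.11), Wwtr1 (5.93), Tead1 (1.18), Tead2 (0.842), Amotl2 (0.668), Lats1 (0.611), Tead3 (0.238), Ankrd1 (0.0578) and Tead4 (0). In Reninnull cells it continued with Amotl2 (20.7), Wwtr1 (18.3), Tead1 (16.1), Yap1 (14.9), Lats1 (5.35), Tead2 (0.892), Tead3 (0.832), Tead4 (0.305) and Ankrd1 (0.0165). Tead1 therefore stood far below Yap1 in WT and beside it in Reninnull cells. With the longest transcript, Yap1 (26.2) came above Tead1 (21.9) and Wwtr1 (18.6) in Reninnull cells, so the order of these 3 was not settled, and with 1 sample per genotype no spread is at hand to separate neighbours.

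The core kinase, upstream, STRIPAK, 14-3-3 and target lists, some of which also hold genes described above, each had members on both sides of WT. Of the 7 core kinases and their scaffolds (Stk3, Stk4, Sav1, Mob1a, Mob1b, Lats1, Lats2), 3 were at least 2-fold higher and 2 lower, with a median log2 ratio of 0.08, beside 52.4%, 18.5% and 1.17 over all genes, against which the next 3 lists are set as well. Without Lats1 and Lats2 these were 1 and 2 of 5, with a median of -0.65. Stk3, which encodes the kinase MST2 upstream of LATS, stood at 50.7 CPM in WT and 4.76 CPM in Reninnull cells (-3.41) and was lower in both libraries (-4.85 and -2.80). Mob1b, a LATS activator, was lower in both (-1.13 and -1.26, together -1.20), but with the highest cells left out it was higher (3.75 and 24.4 CPM), while its paralogue Mob1a differed little (0.08). Stk4, the paralogue of Stk3, had log2 ratios of -4.23 in YFP1 and 0.17 in YFP2 and -0.65 over both, but 1 WT cell held 96.7% of its WT counts, and with the highest cells left out it was higher (1.25 and 7.59 CPM). The 2 kinases that act on YAP itself were thus higher with all cells, and the kinase Stk3 above them was lower. Of these 2, Lats1 was higher in YFP2 alone (-4.61 in YFP1 and 4.00 in YFP2).

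Upstream regulators and adaptors (24 genes, among them Nf2, the Taok and Map4k kinases, Fat4 and the angiomotins) had 14 members at least 2-fold higher and 3 lower, with a median log2 ratio of 1.41, which is near the shares over all genes, and 13 and 3 of 23 without Amotl2. The most different were set by single cells. Fat4, an atypical cadherin, had 2 counts in WT and 12634 in Reninnull cells, 89.4% of these in 1 cell, and Map4k5 had a log2 ratio of 5.01 with 88.3% of Reninnull counts in 1 cell. Taok3 (-4.28) and Map4k3 (-3.39), kinases that feed into the cascade, were lower, and 1 WT cell each held 94.7% and 99.5% of what WT had. With the highest cells left out Map4k3 turned to higher in Reninnull cells (0.461 and 5.08 CPM), and Taok3 stood at 7.46 and 5.18 CPM. Rassf1 had a log2 ratio of -0.66.

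Of the 9 genes of the STRIPAK phosphatase complex, which opposes the kinases, 2 were at least 2-fold higher and 0 lower, with a median of 0.83. Sike1 was higher in both libraries (1.90 and 3.77, together 3.19). Strn stood at 35.0 and 98.9 CPM, with log2 ratios of 2.11 in YFP1 and 0.66 in YFP2 and 93.4% of its WT counts in 1 cell. Strn3 (0.90), Slmap (0.38), Ppp2ca (0.18) and Ppp2r1a (-0.08) lay under the threshold. Of the 11 genes of 14-3-3 proteins and YAP degradation 6 were higher and 1 lower, a share near that of all genes, with a median of 2.05. Sfn (10.29, from 3 to 7587 counts), Ywhah (5.55) and Csnk1d (4.67), a kinase that takes part in YAP degradation, were highest. For Csnk1d 1 cell held 76.8% of the WT and 1 cell 67.5% of the Reninnull counts. Without the highest cells Csnk1d stood at 0.813 and 27.8 CPM. The most abundant, Ywhaz, stood at 1498 and 1382 CPM (-0.12). Ywhaq had -0.90, and Btrc, the ubiquitin ligase subunit that recognises YAP, had -2.13 with 96.9% of its WT counts in 1 cell and turned to higher without the highest cells (1.96 and 6.95 CPM). The other TEAD cofactors with at least 10 CPM, Vgll3 and Vgll4, had log2 ratios of 0.19 and 0.21 and, as Yap1 and Wwtr1, opposite signs in YFP1 (-1.52 and -2.59) and YFP2 (0.85 and 0.99).

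**Figure D5:**
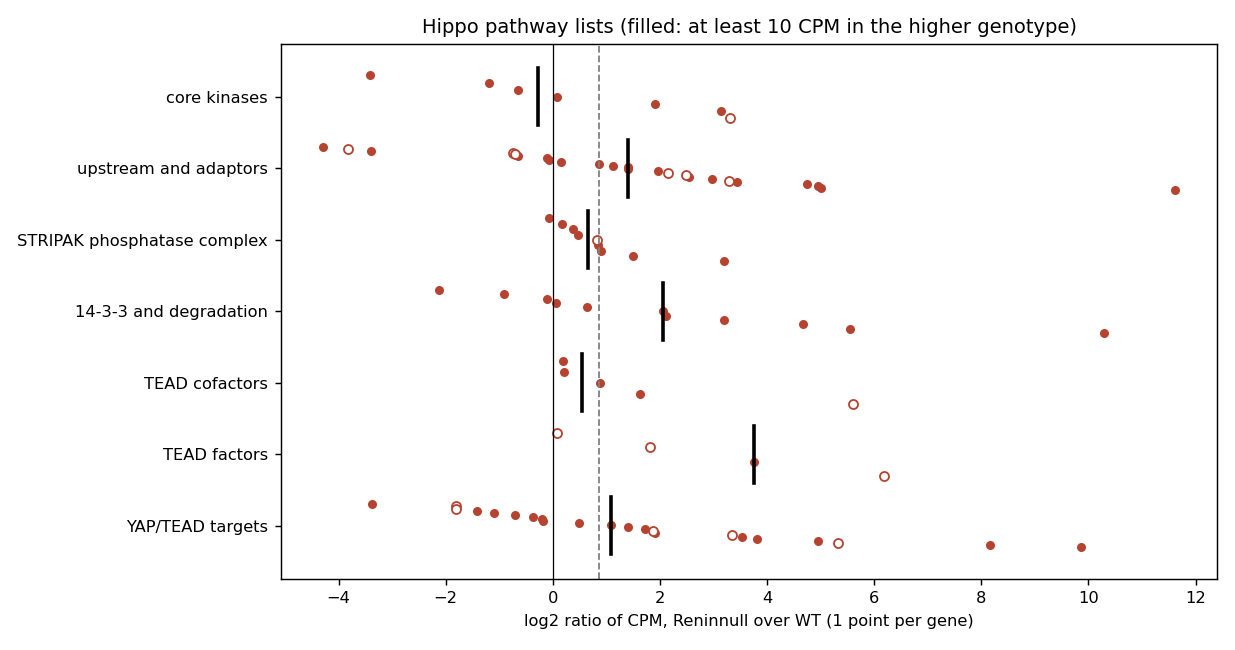
Log2 ratio of CPM (x axis, Reninnull over WT) of the genes of 7 Hippo pathway lists (y axis), 1 point per gene, filled where the gene had at least 10 CPM in the higher genotype. Thick bars are medians of the filled points and the dashed line is the median of all genes of at least 10 CPM (0.86). Core kinases lie on both sides of 0, and targets spread from -3.38 to 9.86.

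Target genes of YAP and TEAD were mixed, and the summed levels of the standard targets Ccn1 and Ccn2 differed by less than 2-fold. Of 22 genes commonly used as targets 12 were at least 2-fold higher and 5 lower, with a median log2 ratio of 1.25, beside 52.4%, 18.5% and 1.17 over all genes. Without Amotl2, Lats2 and Ankrd1 the counts were 10 and 4 of 19 and the median 1.09, and 0.49 over the 15 of these with at least 10 CPM, beside 0.86. Ccn1, a secreted matrix protein and a standard YAP target, stood at 824 CPM in WT and 721 CPM in Reninnull cells (log2 ratio -0.19, 0.06 in YFP1 and -0.44 in YFP2). Ccn2, its relative that is known as connective tissue growth factor, stood at 172 and 150 CPM (-0.20, 0.05 and -0.44). After thinning, Ccn1 had a count in 81.6% of WT and 61.4% (50.1 to 71.9) of Reninnull cells, and Ccn2 in 30.6% (18.3 to 45.4) and 34.9% (24.8 to 46.2). Among thinned cells within the limits both were found less widely in Reninnull cells, Ccn1 in 13 of 15 WT and 31 of 57 Reninnull cells and Ccn2 in 9 of 15 and 23 of 57. The median cell within the limits held 343 CPM of Ccn1 in WT and 29.9 CPM in Reninnull cells, and 22.7 and 1.34 CPM of Ccn2. Over all cells the medians were 40.6 and 48.2 CPM of Ccn1, the other direction, and 2.16 and 1.37 CPM of Ccn2. These wide differences of the median cell were thus seen only within the limits. With the highest cells left out the summed levels were 585 and 586 CPM of Ccn1 and 83.01 and 126 CPM of Ccn2.

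The largest ratios belonged to targets that WT cells almost lacked. Nuak2, a kinase, had 3 counts in WT and 5626 in Reninnull cells (9.86), with log2 ratios of 1.35 in YFP1 and 10.74 in YFP2. Only 7 of these counts lay in YFP1 and 5619 in YFP2. Myof, a membrane repair protein, was higher in both libraries (8.79 and 7.31), with 24 WT counts and a count in 33 of 96 Reninnull cells. Ccdc80, a matrix protein, stood at 414 and 39.8 CPM (-3.38) and was lower in both libraries, with thinned shares of 34.7% and 8.43%. Arhgef17 (-1.42) and Dock5 (-1.10), exchange factors for small GTPases, were lower as well. Axl, a receptor kinase chosen after its values were seen, had a count in 50 of 51 WT and 72 of 96 Reninnull cells and stood at 143 and 304 CPM (1.09, with 1.50 in YFP1 and 0.63 in YFP2), while its thinned share was 75.5% in WT and 41.0% in Reninnull cells. Of the 19 targets beyond the 10 genes, 6 had a thinned share at least 10 points higher in Reninnull cells and 3 (Ccn1, Axl and Ccdc80) one that much lower. Over the 6690 genes found in at least 10% of the thinned cells of a genotype these were 43.9% and 7.28%. Not all 19 targets meet that minimum.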

How the data were processed

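Single-cell mRNA libraries were made with the SMART-Seq v4 and Nextera XT kits. The authors trimmed reads with Trimmomatic 0.39, checked them with FastQC 0.11.5, quantified them with Salmon 0.11.2 on GRCm38.p6 and summed transcripts to genes with tximport (lengthScaledTPM). The authors deposited the resulting expected counts per gene and cell, not normalized for depth, and they were rounded here to whole numbers. The 10 genes, the pathway lists and the marker lists were chosen with earlier results of these data known.

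Rounded counts were summed per genotype, scaled to CPM and compared as a log2 ratio in Python 3.11.15 with numpy 2.4.6, pandas 2.3.3 and scipy 1.17.1. A group at 0 was set to 3 counts, genes with at most 3 counts in each group got no ratio, and a ratio of at least 1 or at most -1 counted as higher or lower. On simulated sums of 16079 genes at the levels of this comparison, 50 genes with a true log2 ratio of 1 had a median estimate of 1.001. These sums held counting error only, without spread between cells or PCR copies, so they check the calculation of the ratio alone. Shares of cells have exact Clopper-Pearson intervals. Cells were thinned once, with a fixed seed, to 62000 counts (the 10th percentile). Genes named beyond the 10 are, for each list, the 3 highest and the 3 lowest by ratio among those with at least 10 CPM, Ccn1 and Ccn2, Axl (chosen after its values were seen), and the 5 most like Yap1, Wwtr1 and Tead1, of which 1 is not reported here. Alternatives used edgeR 4.0.16 (TMM factors only) and Seurat 5.3.0 with sctransform 0.4.2 in R 4.3.3. Positions are from GENCODE M21, where all 116 genes looked up had 1 match. No doublet caller was run, and protein sequences were not analysed here.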

Additional observations from a re-analysis of the deposited data

Results flagged for a closer look

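In 4 of the 10 genes the summed levels of the Reninnull libraries lay on opposite sides of that of the WT cells. Yap1 had a log2 ratio of -0.83 in YFP1 and 1.54 in YFP2, and Wwtr1 of -0.70 and 2.36. Tead2 went the other way, with 0.56 in YFP1 and -0.48 in YFP2. Lats1 showed the widest gap, with -4.61 in YFP1 and 4.00 in YFP2. The share of thinned cells with a count, however, lay above WT in both libraries for Yap1, Wwtr1 and Tead2. In WT, YFP1 and YFP2 it was 24.5%, 37.5% and 39.5% for Yap1 and 14.3%, 17.5% and 27.9% for Wwtr1. For Tead2 it was 2.04%, 7.50% and 11.6%, and for Lats1 4.08%, 0% and 20.9%. Both ratios of a gene share the same WT cells, the labels tie no cell of a library to a mouse or capture, and the differences between the libraries were not tested. Among genes of at least 10 CPM the libraries lay on opposite sides in 24.5%.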

How the results depend on the processing

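No paired analysis was possible because each genotype is 1 sample and the numbers in the labels only name cells. No mouse or capture could be left out, but each Reninnull library was also set against WT alone. With all cells 7 genes were higher and 1 lower, with a median log2 ratio of 1.86 for the 10 genes and 1.25 for the 22 targets. The number higher was 4 with a difference of mean log2(CPM + 1), with centring on the median of all genes and in YFP1 alone, where 9.03%, 37.6% and 45.7% of all genes were higher, and 3 without wells at 100 CPM of other kidney markers, where 44.0% were. The number lower was 2 with centring and 3 without those wells, where 34.6% and 35.1% of all genes were lower. It was 0 in 6 settings, given here with the share of all genes lower. These were mean log2 values (1.90%), cells thinned on all (13.5%) or on non-mitochondrial counts (16.1%), the highest cells left out (11.1%), the cell limits (20.1%) and a minimum of 100 counts (18.4%). The medians of the 10 genes and of the targets were 2.59 and 1.08 with the mean of CPM, 0.60 and 0.21 with mean log2 values, 2.00 and 1.13 thinned, 1.98 and 1.52 with non-mitochondrial counts thinned, 1.16 and 0.55 with TMM, 0.69 and 0.080 centred, 0.56 and 0.057 in YFP1, 2.15 and 1.39 in YFP2, 3.37 and 3.03 without the highest cells, 1.70 and 1.09 without mitochondrial counts, and 2.02 and 1.62 with SCTransform. The median of the 10 genes was 1.58 in cells within the limits. Without wells at 100 CPM of other kidney markers they were 0.0066 and 1.44, and at 1000 CPM 2.12 and 1.20. The median of all genes was 1.17 in the fit reported, 1.75 with the mean of CPM, 0.13 with mean log2 values and 1.36 thinned. It was 1.18 with non-mitochondrial counts thinned, 0.47 with TMM, 0.71 in YFP1, 0.98 in YFP2 and 1.85 without the highest cells. In cells within the limits it was 1.11, without mitochondrial counts 1.01 and with SCTransform 1.67. Without wells at 100 CPM of other kidney markers it was 0.35, and at 1000 CPM 0.93. Of the ratios of at least 1 or at most -1, those that changed sign were Tead1 (-4.04) and Lats1 (-6.62) without wells at 100 CPM, Wwtr1 without those at 1000 CPM (-0.31) and in YFP1 (-0.70), Lats1 in YFP1 (-4.61), Tead4 thinned (-0.023) and Ankrd1 within the cell limits (1.42), and, with the highest cell of the library left out, Lats2 in YFP1 (-1.49) and Tead3 in YFP2 (-0.16), neither of which did so with the highest WT cell left out too (2.61 and 1.86). Of the smaller ones, Yap1 changed sign in YFP1 (-0.83) and when centred (-0.29), and Tead2 did so in 6 of 16 settings (-0.078 to -2.59), while it was above 0 in 10, reaching 3.79 without the highest cells. The wells left out hold most Reninnull counts of Tead1, and beyond that the cause was not tested. Amotl2 stood at 1 or above in 16 of 16 alternatives for the ratio of the genotypes, Tead1 and Lats2 in 15, Tead3 in 14, Lats1 in 13 and Wwtr1 in 9. Yap1, at 0.88 with all cells, did so in 7, Tead2 in 3, and Tead4 in 10 of the 12 that gave a value. SCTransform gave no value for Tead4. The 2 limits on other markers, the thinning of non-mitochondrial counts and the libraries without their highest cells were added after the data had been seen. Tead2, Tead3, Tead4 and Ankrd1 stood under 10 CPM in both genotypes.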
